A study of Mus musculus with 4 samples.

Results

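The beta-defensin genes of the mouse were followed through testis development, as the 42 of 112302 deposited entries whose name was DEFB and a number and nothing else. All 42 matched by symbol a protein-coding gene of the GENCODE vM21 annotation on the mouse assembly GRCm38 (mm10). RNA labelled as testis of BALB/C mice was sequenced at 4 ages, with 1 library each from embryos of day 14 (E14) and of day 18 (E18), and from mice 3 weeks and 6 months old. The 4 groups differed in age, and the labels name no genotype or treatment. The RNA was bought as total tissue RNA from a supplier, and how many animals went into each preparation is not stated in the labels. Ribosomal RNA was depleted in all 4, and the labels disagree on whether polyadenylated RNA was then selected.

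Beta-defensins are small, positively charged, secreted peptides whose cysteines pair into disulfide bonds and hold a compact fold. They are made mostly by epithelia, where they damage microbial membranes, and some also attract immune cells through the chemokine receptor Ccr6. In the male tract many members are made by the epididymis, the duct in which sperm mature, and several coat the sperm surface, while Defb19 has been described in Sertoli cells, the somatic cells of the seminiferous tubule.

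The coding sequences of the 4 members with the highest level in any library are shown because the cysteine spacing is what defines the family. They are spliced from GENCODE transcripts of the GRCm38 reference, which is the C57BL/6J strain and not BALB/C, and run 5′ to 3′ from start to stop codon. Capitals mark the in-frame cysteine codons TGT and TGC. Each is made of 2 coding exons: Defb19 on the minus strand at chr2:152576163-152580247, Defb36 on the plus strand at chr2:152604488-152612626, Defb33 on the plus strand at chr8:20895126-20897637, and Defb14 on the plus strand at chr8:19194357-19195212.
Defb19: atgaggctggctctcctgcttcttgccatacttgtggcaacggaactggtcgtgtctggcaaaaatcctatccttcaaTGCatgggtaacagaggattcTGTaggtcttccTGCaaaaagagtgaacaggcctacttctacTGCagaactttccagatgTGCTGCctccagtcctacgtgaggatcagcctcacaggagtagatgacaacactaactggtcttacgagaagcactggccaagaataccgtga
Defb36: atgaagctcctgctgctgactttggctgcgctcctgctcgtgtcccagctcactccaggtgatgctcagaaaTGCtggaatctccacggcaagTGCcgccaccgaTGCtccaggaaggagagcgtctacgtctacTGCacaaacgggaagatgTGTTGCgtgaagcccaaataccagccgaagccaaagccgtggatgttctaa
Defb33: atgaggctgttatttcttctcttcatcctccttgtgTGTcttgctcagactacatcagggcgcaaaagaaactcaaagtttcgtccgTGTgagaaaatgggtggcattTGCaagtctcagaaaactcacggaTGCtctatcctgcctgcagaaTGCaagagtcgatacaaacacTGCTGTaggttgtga
Defb14: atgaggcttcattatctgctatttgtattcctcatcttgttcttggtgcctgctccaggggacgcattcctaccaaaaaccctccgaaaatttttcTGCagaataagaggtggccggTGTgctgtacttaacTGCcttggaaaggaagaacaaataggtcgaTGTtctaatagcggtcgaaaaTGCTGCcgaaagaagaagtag

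Defb19 and Defb36 had the same spacing, with 6, 3, 9, 5 and 0 codons between successive cysteine codons. Defb14 differed from them in 2 of the gaps, with 6, 4, 9, 6 and 0. The pattern searched was 6 cysteine codons with gaps of 4 to 8, 2 to 6, 7 to 13, 4 to 8 and 0 codons. Of the 42 coding sequences 38 held it, and their gaps lay within 5 to 7, 3 to 4, 9 to 13, 4 to 6 and 0 codons. The gap of 9 was found in 37 of the 38, the gap of 6 in 34, the gap of 3 in 27 and the gap of 5 in 21. The exceptions were Defb8 with 5 cysteine codons, Defb33 with 7, and Defb46 and Defb50, each with 6 in another spacing. Defb33 has a cysteine codon early in its coding sequence, and its later gaps were 6, 7, 6, 6 and 0. Over the 861 pairs of members the median identity of aligned coding sequence was 53.6%. No value for unrelated sequences stands beside it, so it is not a measure of shared family sequence. Alignments ran over the full length, so unequal lengths lower the identity (29.4% for Defb26 and Defb46, with 561 and 174 coding bases). At least 80% was reached by 3 pairs, which were Defb15 with Defb34 (91.1%), Defb3 with Defb5 (85.8%) and Defb10 with Defb11 (84.3%). Levels of these 6 genes are uncertain, because reads could have been shared or split between near copies. The uncertainty is not confined to the 6, as genes under 80% can share stretches. Defb2, Defb9, Defb10 and Defb11 begin with the same run of bases, and Defb12 and Defb35 (70.9%) end alike but for a few.

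The libraries were of similar depth, with 33952471 to 38903334 reads behind the RPKM (read counts divided by gene length and by library depth). For a gene model of 400 bases, 3 reads, the most that a count of 0 allows at 95% confidence, correspond to 0.193, 0.219, 0.221 and 0.209 RPKM in age order. The labelled tissue was checked by marker lists. At E14, 7 of 20 Sertoli cell markers reached 1 RPKM, Fshr and Rhox8 were listed at 0, and the summed Sertoli level was 45.2 RPKM, beside 307 for 7 liver markers and 187 for 6 skeletal muscle markers. Of that Sertoli sum, Trf alone held 25.5 RPKM, and it had 13.4, 1.23 and 1.29 at the later ages. The liver markers summed to 64.9, 0.727 and 1.14 RPKM at those ages, and the part of liver RNA in the Trf level was not tested. The summed Sertoli level was 225 RPKM at E18, 310 at 3 weeks and 228 at 6 months. Meiotic spermatocyte markers summed to 2.72, 7.82, 870 and 700 RPKM in age order, and spermatid markers to 3.503, 4.51, 31.8 and 6960. Markers of other organs were present at E18 (kidney tubule 42.9 RPKM, bladder 53.7, liver 64.9) and at 3 weeks (epididymis 85.4). In whole tissue, fewer cells of a type and less RNA per cell cannot be told apart. With 1 library per age no difference has a replicate check, so no test was made, and intervals of levels (exact Poisson) and of ratios (exact Clopper-Pearson) are at 95% and cover counting error only.

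Of the 42 genes, 6 were listed at 0 in all 4 libraries, namely Defb3, Defb5, Defb18, Defb26, Defb46 and Defb48. Over all entries 12.5% were at 0 throughout, and over annotated protein-coding genes 4.57%. The share of silent beta-defensins was thus near that of all entries and above that of protein-coding genes, the class of all 42. The limit set by 3 reads for these 6 genes ran from 0.137 RPKM (Defb26 at E14) to 0.508 RPKM (Defb46 at 3 weeks), so lower expression was not detectable at this depth. A further 13 genes had no more than 3 reads in any library, and their highest levels lay between 0.0294 and 0.274 RPKM. These were Defb4, Defb6, Defb7, Defb8, Defb12, Defb13, Defb15, Defb20, Defb22 (whose product is a main glycoprotein of the sperm coat), Defb25, Defb34, Defb35 and Defb50. Counting those with at most 3 reads as silent gives 19 genes, and counting those under 0.1 RPKM in every library gives 11. The count of 6 was the same without the E14 library, but was 12 without E18, 17 without 3 weeks and 9 without 6 months.

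At least 1 RPKM in at least 1 library was reached by 14 of the 42 genes, beside 38.3% of all entries and 61.9% of annotated protein-coding genes. The 14 were Defb1, Defb2, Defb11, Defb14, Defb19, Defb21, Defb23, Defb28, Defb29, Defb30, Defb33, Defb36, Defb37 and Defb45. Without the 3 weeks library 9 genes reached that level, and without the 6 months library 9. Another 9 genes stayed under 1 RPKM but had more than 3 reads in a library, namely Defb9, Defb10, Defb38, Defb39, Defb40, Defb41, Defb42, Defb43 and Defb47.

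The number of beta-defensins above 0 was 4 at E14, 12 at E18 and 27 at 3 weeks, and it was 17 at 6 months. The share listed at 0 was 90.5%, 71.4%, 35.7% and 59.5% in the same order, while over annotated protein-coding genes it was 16.3%, 12.5%, 9.73% and 10.9%. The 3 weeks library thus held the most members and the E14 library the fewest, as the map of all 42 levels shows. The summed level of the family had another order, with 0.561, 43.3, 69.4 and 108 RPKM from the youngest to the oldest library. Defb19 alone made up 81.4%, 82.2%, 66.7% and 57.4% of that sum. Without Defb19 and Defb36 the sum was 0.0493, 3.54, 16.4 and 33.4 RPKM.

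**Figure D1:**
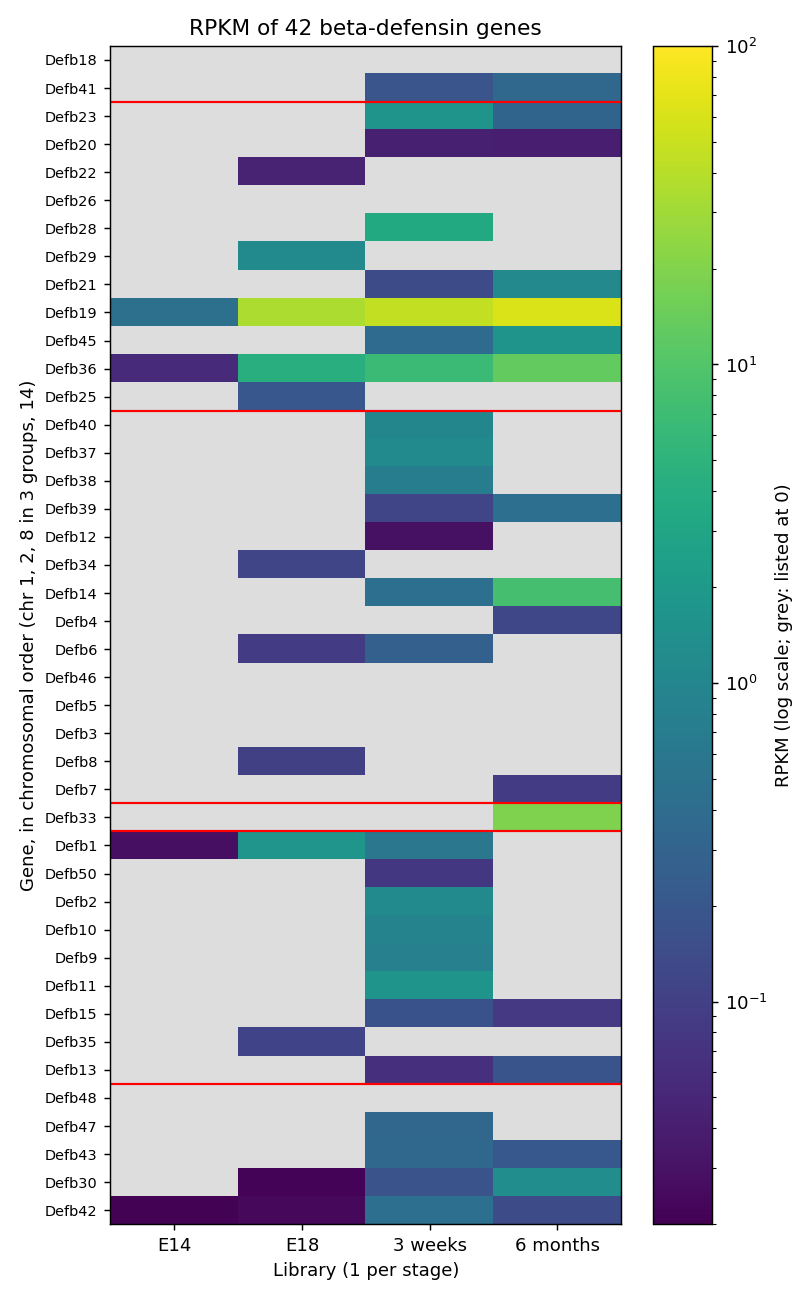
RPKM of the 42 beta-defensin genes (rows, in chromosomal order, with lines between gene groups) in the 4 libraries (columns, 1 per age) on a log colour scale, with genes listed at 0 in grey. Defb19 and Defb36 have colour in all 4 columns, the 3 weeks column has 27 coloured cells, and the E14 column has 4.

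By the age of the highest level, 7 genes peaked at E18, 17 at 3 weeks, 12 at 6 months and 0 at E14. Many of these peaks rest on few reads: among the 14 genes of at least 1 RPKM the counts were 2 at E18, 5 at 3 weeks and 7 at 6 months. No share of all entries by age of highest level stands beside these counts. Over all entries the 3 weeks library also had the fewest at 0 (25619) and the most of at least 1 RPKM (33267). The larger count at 3 weeks is therefore not read as a trait of the family. Above 0 in a single library were 6 genes at E18, 11 at 3 weeks, 3 at 6 months and 0 at E14. With more than 3 reads in that library, these were 1 (Defb29) at E18, 9 at 3 weeks and 1 (Defb33) at 6 months. The share of members seen in 1 library alone was 14.3% at E18, beside 1.71% of all entries, 26.2% at 3 weeks, beside 3.09%, 7.14% at 6 months, beside 3.09%, and 0 at E14, beside 1.19%. Over annotated protein-coding genes it was 0.948% at E18, 1.62% at 3 weeks, 1.37% at 6 months and 0.347% at E14.

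Differences between adjacent ages were taken as log2(RPKM + 1) at the later age minus that at the earlier one, over entries of at least 1 RPKM in some library, and a size of at least 1 (2-fold on that scale) was the limit. This scale understates the change of low genes, and the 28 beta-defensins under 1 RPKM did not enter. From E14 to E18, 4 of the 14 genes were past the limit upward (Defb1, Defb19, Defb29 and Defb36) and 0 downward. No member reached 1 RPKM at E14, so a call downward was not possible there. Defb1 and Defb29 entered only through the E18 library, so their being higher there is bound to the filter. Over all entries 2.17% were higher and 1.34% lower, and over annotated protein-coding genes 3.54% and 1.63%. From E18 to 3 weeks, 5 were higher (Defb2, Defb11, Defb23, Defb28 and Defb37) and 1 lower (Defb29). There the background was 32.0% higher and 10.5% lower over all entries, and 24.1% and 13.2% over annotated protein-coding genes, so these counts are near the background. As Defb29 entered only through the E18 library, its being lower at 3 weeks is bound to the filter too. From 3 weeks to 6 months, 2 were higher (Defb14 and Defb33) and 5 lower (Defb2, Defb11, Defb23, Defb28 and Defb37). These 5 entered through the 3 weeks library, which both comparisons share, so being higher and then lower is bound to that library and to the filter. Defb14 and Defb33 entered only through the 6 months library, so their being higher there is bound to the filter too. Over all entries 9.73% were higher and 14.1% lower, and over annotated protein-coding genes 9.54% and 7.87%. The median difference of the 14 genes was 0, 0.51 and 0.21 in the 3 comparisons, beside 0.03, 0.46 and -0.31 over all entries.

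These counts depend on how the libraries are scaled to each other. For 3 weeks against E18, the median difference over all entries was 0.46 as deposited, 0.23 after rescaling by the median of ratios and 1.10 after rescaling over ribosomal protein genes. The members higher were 5 of 14, 3 of 12 and 11 of 17, beside 32.0%, 25.7% and 54.6% of all entries tested. With equal sums of RPKM 7 of 16 were higher and 1 lower, beside 36.7% and 8.08% of all entries tested. For 6 months against 3 weeks the medians were -0.31, 0.12 and -0.24. The members higher were 2 of 14, 7 of 12 and 6 of 17, beside 9.73%, 17.7% and 13.7% of all entries tested. With equal sums 3 of 16 were higher and 7 lower, beside 9.496% and 16.99% of all entries tested.

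Defb19 had the highest level of the family in every library. It is a gene of 394 exon bases at chr2:152576086-152580312 on the minus strand. Its level was 0.457 RPKM at E14 (7 reads), 35.6 at E18 (480 reads), 46.3 at 3 weeks (619 reads) and 62.2 at 6 months (878 reads). The order followed age, and the E14 library stood far below the other 3. The E18 level was 77.9 times that at E14 (interval 37.5 to 195), a log2 difference of 4.65. As deposited, the later steps were small, at 1.30 times from E18 to 3 weeks (1.15 to 1.47) and 1.35 times from 3 weeks to 6 months (1.21 to 1.49). Counting error does not cover scaling: the E18 to 3 weeks log2 difference of 0.37 became 0.04 by the median of ratios and 1.67 over ribosomal protein genes. The sign was kept, but the size of the step between E18 and 3 weeks depended on the scaling. From 3 weeks to 6 months, Defb19 passed the 2-fold limit by the median of ratios. It did not pass it over ribosomal protein genes or with equal sums of RPKM.

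Defb36, a neighbour of Defb19 at chr2:152604327-152612729 on the plus strand (468 exon bases), followed the same order at a lower level. It had 0.0549 RPKM at E14 (1 read), 4.18 at E18 (67 reads), 6.73 at 3 weeks (107 reads) and 12.8 at 6 months (215 reads). Each level lay above the one before it by more than counting error. The ratios were 76.2 from E14 to E18 (13.2 to 3052), 1.61 from E18 to 3 weeks (1.18 to 2.22) and 1.91 from 3 weeks to 6 months (1.504 to 2.43). As deposited, neither later step passed the 2-fold limit. Over ribosomal protein genes both did, and by the median of ratios the step to 6 months did.

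The ratio of the 2 genes within a library does not depend on scaling. Per length, Defb36 stood at 12.03% of Defb19 at E14 (0.267 to 93.6), 11.8% at E18 (8.96 to 15.2), 14.6% at 3 weeks (11.7 to 17.9) and 20.6% at 6 months (17.7 to 24.0). The E18 and 3 weeks intervals overlap, and the 6 months interval lies above that of E18 and overlaps that of 3 weeks narrowly. Against Cst9, a cystatin made by Sertoli cells that was chosen after its values were seen, Defb19 had a ratio of 0.939 at E14 (0.317 to 2.53), 1.28 at E18 (1.14 to 1.45), 0.994 at 3 weeks (0.899 to 1.10) and 1.27 at 6 months (1.16 to 1.38). Defb36 had 0.151 of the Cst9 level at E18 (0.116 to 0.194), 0.145 at 3 weeks (0.117 to 0.177) and 0.261 at 6 months (0.225 to 0.302). Because Cst9 was chosen with its values known, a ratio near 1 is no support for a link, and the E18 and 3 weeks intervals of the Defb19 ratio do not overlap. Of the 20 Sertoli cell markers 19 reached 1 RPKM in some library. Among these, 13 were higher and 0 lower at E18 than at E14. At 3 weeks 8 were higher and 6 lower than at E18, and at 6 months 1 was higher and 2 lower than at 3 weeks. Over all entries the shares higher and lower were 2.17% and 1.34%, 32.0% and 10.5%, and 9.73% and 14.1% in the same order. The part of Sertoli cell content in the levels of Defb19 and Defb36 was not tested.

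**Figure D2:**
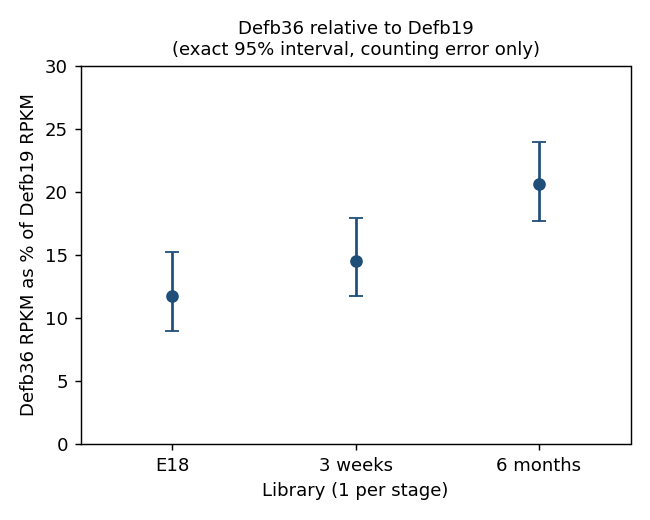
Defb36 level as a percentage of the Defb19 level, per length (y axis), in the E18, 3 weeks and 6 months libraries (x axis), with exact intervals at 95% from read counts. The points stand at 11.8%, 14.6% and 20.6%, and E14, with 1 read of Defb36, is left out.

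Defb1, the constitutive beta-defensin of kidney and other epithelia, and Defb29 were highest at E18. Defb1 (chr8:21776599-21795185, plus strand) had 0.0281 RPKM at E14 (1 read), 1.69 at E18 (53 reads), 0.579 at 3 weeks (18 reads) and 0 at 6 months. Its E18 level was 2.92 times that at 3 weeks (1.68 to 5.30), and the 6 months level was at most 0.216 of that at 3 weeks. Here and in what follows, a bound of a ratio with a count of 0 is the end of its exact interval. Defb29 (chr2:152538714-152540098, minus strand) had 1.14 RPKM at E18 (18 reads) and was listed at 0 in the other 3. Its E18 level was at least 4.997 times that at E14, and its 3 weeks level was at most 0.229 of that at E18. Under ribosomal protein scaling the Defb29 log2 difference of 1.10 fell to 0.82, under the limit. In the same E18 library 8 of 12 kidney tubule markers reached 1 RPKM and none was at 0. Their sum was 1.96, 42.9, 1.77 and 2.23 RPKM in age order, with Kap at 0 in all but E18 and Slc34a1 at 0 at 3 weeks. The 7 bladder markers summed to 26.4, 53.7, 1.49 and 0.381 RPKM. The part of kidney or bladder RNA in these levels was not tested.

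The other genes highest at E18 were Defb8, Defb22, Defb25, Defb34 and Defb35, each with 0.0465 to 0.199 RPKM there and 0 elsewhere. All were within the 3 reads that a count of 0 allows.

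Of the 17 genes highest at 3 weeks, 11 were above 0 in that library alone, together 11.3 RPKM from 136 reads. Defb28 (chr2:152518255-152521447, plus strand) led with 3.49 RPKM (47 reads), followed by Defb11 with 1.65 (19 reads), Defb37 with 1.17 (14 reads) and Defb2 with 1.16 (12 reads). Under 1 RPKM were Defb40 with 0.984, Defb10 with 0.890, Defb9 with 0.821, Defb38 with 0.721 and Defb47 with 0.328. Defb12 and Defb50, with 1 read each, complete the 11. Defb37 and Defb40 are known from the epididymis. At 3 weeks Defb28 was at least 12.3 times its E18 level, Defb11 at least 4.70 times, Defb37 at least 3.34 times and Defb2 at least 2.80 times. At 6 months the same genes were at most 0.0774, 0.203, 0.286 and 0.341 of their 3 weeks levels.

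Defb23 (chr2:152459055-152464620, minus strand) was listed at 0 in both fetal libraries and had 1.65 RPKM at 3 weeks (35 reads) and 0.313 at 6 months (7 reads). The 3 weeks level was at least 9.07 times that at E18 and 5.27 times that at 6 months (2.31 to 14.1). Defb42, also known from the epididymis, was above 0 in all libraries with 0.0212, 0.0241, 0.450 and 0.138 RPKM in age order. Defb43 had 0.361 RPKM at 3 weeks and 0.205 at 6 months. Both were highest at 3 weeks, as were Defb6, Defb15 and Defb20 with no more than 3 reads each.

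The 11 genes were chosen for being at 0 outside the 3 weeks library, so their age is fixed by that choice. The 27 measured epididymis markers summed to 0.430, 3.03, 85.4 and 68.1 RPKM in age order. Of these markers 7 reached 1 RPKM in some library. Over all entries 32.0% were higher and 10.5% lower from E18 to 3 weeks, and 9.73% and 14.1% from 3 weeks to 6 months. Of the 7 markers, 5 were higher and 0 lower from E18 to 3 weeks, and from 3 weeks to 6 months 2 were higher and 5 lower. The 2 were Cst8, known from both epididymis and testis (0.0603, 1.34, 1.07 and 63.2 RPKM), and Rnase10 (0.0309, 0, 0.0531 and 2.28). Without Cst8, a choice made after its values were seen, the sum was 0.370, 1.69, 84.3 and 4.92 RPKM. The sperm-coating protein gene Crisp1 had 0.0182, 0.206, 41.5 and 0.0197 RPKM, Spink8 0, 0.993, 22.0 and 0.739, Cuzd1 0, 0.0130, 11.4 and 0.669, and Adam7 0.0141, 0.0560, 2.38 and 0. At 3 weeks 6 of the 27 measured markers reached 1 RPKM and 6 were at 0 (Adam28, Cst11, Lcn9, Ly6g5c, Rnase13 and Spag11b). At 6 months 13 were at 0, among them Adam7, Lcn5 and Lcn8. Spag11a, a defensin-like gene outside the name rule, had 0.895 RPKM at 3 weeks and 0 in the other libraries. The part of epididymal RNA in the genes seen at 3 weeks was not tested.

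**Figure D3:**
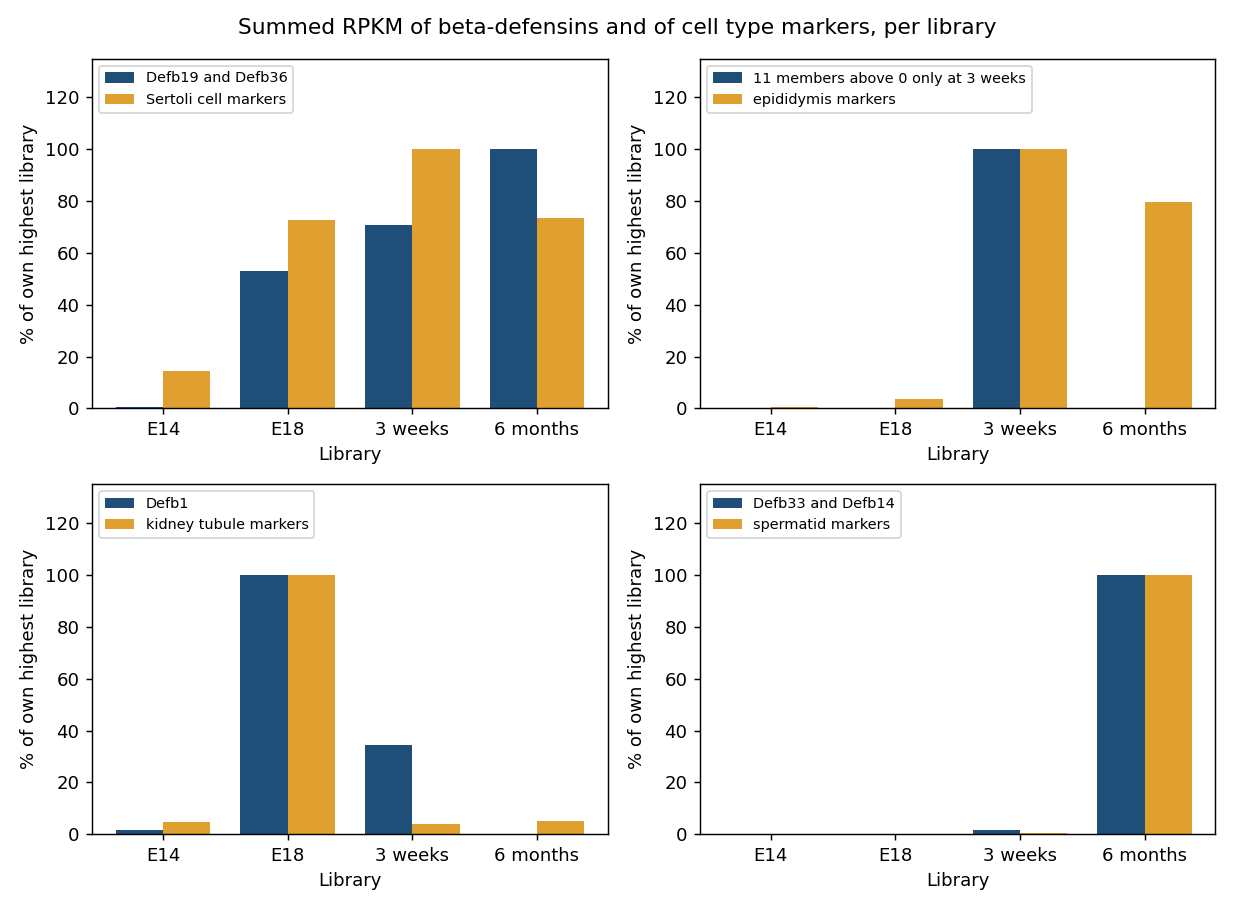
Summed RPKM of 4 sets of beta-defensins (blue) and of 4 marker lists (orange), each as a percentage of its own highest library (y axis), in the 4 libraries (x axis). Defb19 with Defb36 are highest at 6 months and the Sertoli cell markers at 3 weeks, and the epididymis markers stand high at both 3 weeks and 6 months while the 11 genes, chosen for being above 0 at 3 weeks alone, have 1 bar. Defb1 and the kidney markers are highest at E18, and Defb33 with Defb14 and the spermatid markers at 6 months. Defb1 reached 1 RPKM at E18 alone, and Defb33 and Defb14 at 6 months alone, so these ages are bound to the choice of genes. Leydig cell markers, also highest at 6 months in sum, are not drawn.

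Defb33 and Defb14 were highest at 6 months. Defb33 (chr8:20892669-20897723, plus strand) was listed at 0 at E14, E18 and 3 weeks and had 19.1 RPKM at 6 months, second to Defb19 there. Its 6 months level was at least 37.1 times that at 3 weeks (log2 difference 4.33). Its count of 146 reads is the smallest whole number that gives the deposited value, for a model of 213 bases beside 424 annotated exon bases, so the true count may be a multiple of it. Defb14, whose product is the mouse counterpart of human beta-defensin-3 (chr8:19194357-19195212, plus strand), was at 0 in both fetal libraries and had 0.446 RPKM at 3 weeks (5 reads) and 8.21 at 6 months (97 reads), 18.4 times as much (7.62 to 57.9).

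Defb45, Defb30 and Defb21 had smaller values in the same direction, none past the limit as deposited. Defb45 was at 0 in both fetal libraries and had 0.397 RPKM at 3 weeks (8 reads) and 1.65 at 6 months (35 reads), 4.15 times as much (1.89 to 10.4). Defb30 had 0, 0.0219, 0.177 and 1.32 RPKM in age order, the last 7.47 times the one before (3.57 to 18.05). Defb21, also at 0 in both fetal libraries, had 0.138 RPKM at 3 weeks (2 reads) and 1.11 at 6 months (17 reads), a ratio of 8.06 (1.91 to 71.9). All 3 passed the limit with the median of ratios, with ribosomal protein scaling and with a pseudocount of 0.1, and with equal sums of RPKM Defb30 did and Defb45 and Defb21 did not. Defb39 (0.117 and 0.443 RPKM at 3 weeks and 6 months) and Defb41 (0.188 and 0.357) were also highest at 6 months, as were Defb4, Defb7 and Defb13 with no more than 3 reads each. In the same comparison all 12 spermatid markers were higher, beside 9.73% of all entries, and none was at 0 at either age. The 8 Leydig cell markers summed to 71.9 RPKM at 3 weeks and 579 at 6 months. The part of spermatid or Leydig cell content in these levels was not tested.

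**Figure D4:**
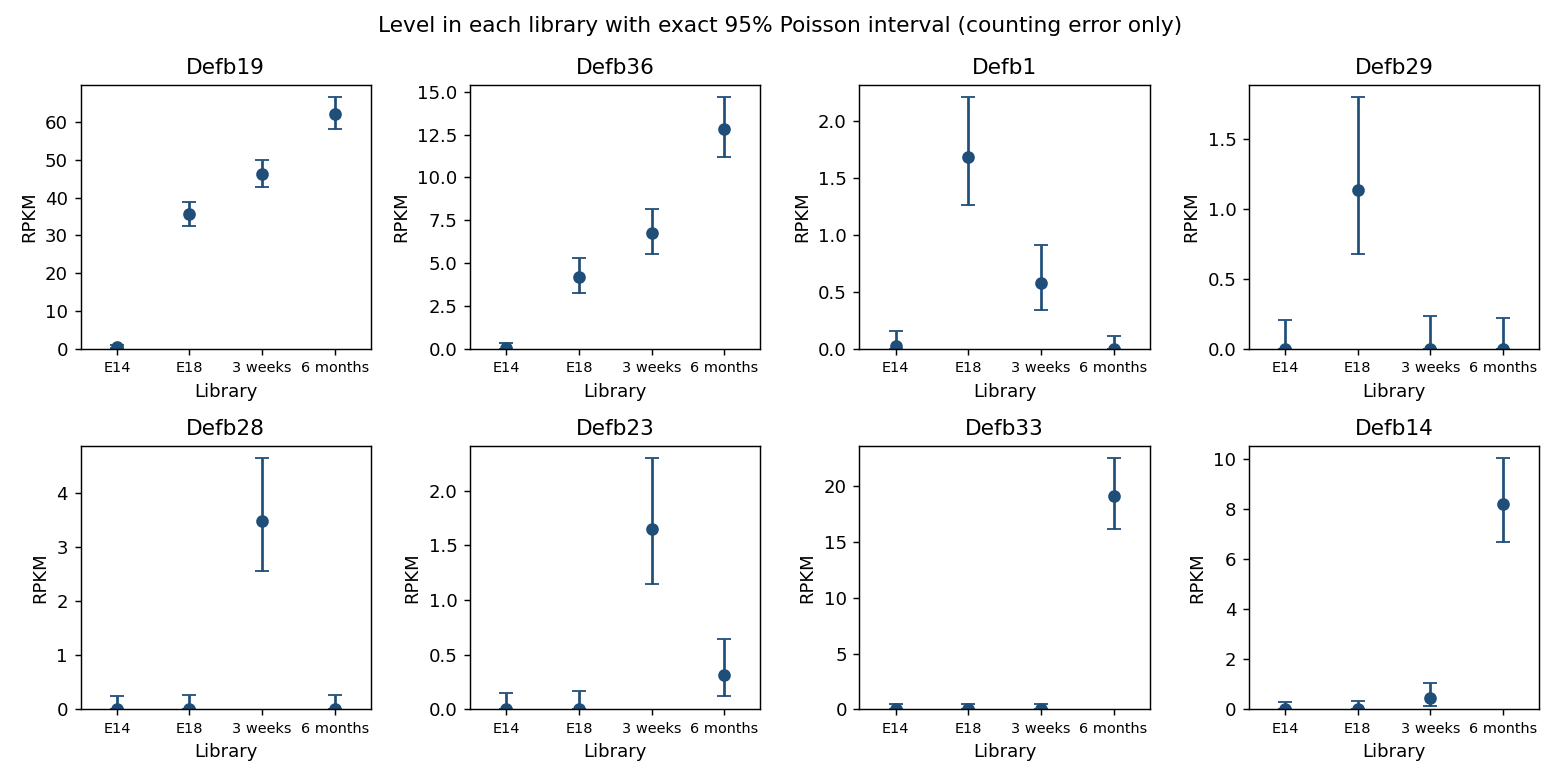
RPKM (y axis, own linear scale in each panel) of 8 beta-defensin genes in the 4 libraries (x axis), with exact Poisson intervals at 95% from read counts. Defb19 and Defb36 are low at E14 and highest at 6 months, Defb1 and Defb29 peak at E18, Defb28 and Defb23 at 3 weeks, and Defb33 and Defb14 at 6 months.

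The genes lie in 6 groups when neighbours within 500 kb are joined. By summed level, 5 of the 6 were highest at 6 months, and the group from Defb1 to Defb13 was highest at 3 weeks. The chromosome 2 group of 11 genes, Defb23 to Defb25 (chr2:152459055-152623053), held 7 of the 14 genes of at least 1 RPKM and most of the summed level, with 0.512, 41.2, 58.7 and 78.2 RPKM in age order. Its members did not share an age: 3 peaked at E18, 3 at 3 weeks and 4 at 6 months, and Defb26 was silent, although Defb20, Defb22 and Defb25 had 1 or 2 reads. The group of 9 on chromosome 8 from Defb1 to Defb13 (chr8:21776599-21948850) had 6 genes highest at 3 weeks, and its sum was 0.0281, 1.80, 5.41 and 0.266 RPKM. The group of 14 on chromosome 8 from Defb40 to Defb7 (chr8:18974940-19497775) had 3 silent genes and sums of 0, 0.311, 3.74 and 8.87 RPKM, the last almost all Defb14. Defb33 stood alone between these groups. The 5 genes on chromosome 14 summed to 0.0212, 0.0461, 1.32 and 1.66 RPKM, although 3 of them were highest at 3 weeks and only Defb30 at 6 months. The 2 on chromosome 1, Defb18 and Defb41, had 0, 0, 0.188 and 0.357, all from Defb41 with 3 reads at 3 weeks and 6 at 6 months.

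Sequence just upstream of the start was available from RefSeq (build GRCm38.p6) for 29 of the 42 genes. In 250 bases before the start, both strands searched, the letters AGAACA, those of an androgen receptor half-site, occurred in 14 of the 29, beside 16.1% of all 32851 promoters of that length. By age of the highest level they occurred in 1 of 3 genes of E18, 6 of 12 of 3 weeks, 3 of 9 of 6 months, and 4 of 5 silent genes, and a difference between ages was not tested. The other letters searched were TATAAA (5 of 29, beside 12.4%), AACAAT (1, beside 9.42%), AGATAA (5, beside 9.99%), AAGGTCA (4, beside 4.08%) and TGACGTCA (0, beside 1.55%), and matches of different letters may overlap. A match is a description of letters and not a bound site. The promoter of Defb36 is shown as that of the gene with the highest level among those with a match, at chr2:152604077-152604326 on the plus strand, with capitals for AGAACA read on the other strand, 209 and 160 bases before the start.
Defb36 promoter: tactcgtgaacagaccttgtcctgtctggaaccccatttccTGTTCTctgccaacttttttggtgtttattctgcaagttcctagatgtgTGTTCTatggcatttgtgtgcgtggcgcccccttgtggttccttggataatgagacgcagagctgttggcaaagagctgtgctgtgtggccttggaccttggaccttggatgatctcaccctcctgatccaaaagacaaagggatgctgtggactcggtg

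Genes that act with defensins had low levels at all ages. Of 18 genes of defensin receptors and microbial sensing, 5 reached 1 RPKM, and the 1 past the limit in any comparison was the sensor Nod1, lower at 3 weeks (1.66 RPKM at E18 and 0.274 at 3 weeks). The adaptor Myd88 had 1.32, 1.41, 3.59 and 2.37 RPKM in age order. Ccr6, named here for its role, had 0.0124, 0.0281, 0.0425 and 0.457 RPKM. Alpha-defensins, the related family of Paneth cells, had 11 entries, all at 0 at E14 and none at 1 RPKM at any age.

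Other antimicrobial genes and the WFDC family, protease inhibitors that include the sperm protein Eppin, were counted in the same way. Of 17 antimicrobial genes 7 reached 1 RPKM: 2 were higher at E18 than at E14 (Lcn2 and S100a9), 1 was higher (Bpi) and 4 lower at 3 weeks than at E18, and 1 was higher at 6 months (Lcn2). Lcn2, which binds bacterial siderophores, had 0.167, 2.55, 0.755 and 42.1 RPKM, the lysozyme Lyz2 4.81, 8.03, 11.5 and 11.6, and Bpi, which binds bacterial lipopolysaccharide, 0, 0.0455, 6.25 and 8.40. Of 21 WFDC family genes 15 reached 1 RPKM, with 3 higher at E18, 10 higher and 1 lower at 3 weeks, and 5 lower at 6 months. Beside both lists, the shares of all entries higher and lower were 2.17% and 1.34% at E18, 32.0% and 10.5% at 3 weeks, and 9.73% and 14.1% at 6 months. Wfdc15a had 0, 0.120, 29.8 and 25.8 RPKM, Wfdc10 0.0560, 1.91, 28.8 and 11.6, and Eppin 0.0330, 0.188, 13.02 and 10.5. The largest decreases to 6 months were those of Wfdc15b (4.61 to 0 RPKM), Wfdc16 (3.73 to 0.0996) and Wfdc1 (10.5 to 1.81), and 6 of the 21 were at 0 at 6 months.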

How the data were processed

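Transcript levels were read from 4 tables, 1 per library, in which the authors deposited RPKM for 112302 entries. Per the submitters' processing notes, TopHat2 and the mouse build mm10 were used. For the read counter, the gene annotation, strand and multiply mapped reads, the settings were not given in the sources used here. Whole reads and a model length were recovered from the RPKM steps for 98240 of 98242 entries above 0 (99.998%, relative tolerance 1e-11, lengths up to 200000 bases). Of the 36 beta-defensins above 0, 25 recovered lengths equalled the annotated exon length and 2 (Defb29 and Defb37) were scaled to it, while 9 differed from it, so their reads are the smallest whole numbers possible. PCR copies of a molecule are not independent, so the intervals cover counting alone. Exons of 1 member, Defb15, overlap another annotated gene, the antisense Gm36879.

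Members and gene lists were chosen with earlier results of these data known. Every member is named, with values in every library for those of at least 1 RPKM, and other lists are named by their highest or most different genes, apart from Ccr6 and Cst9. The marker lists were Sertoli, epididymis, kidney tubule, bladder, liver, skeletal muscle, epidermis (20.9, 2.20, 1.80 and 4.45 RPKM in age order), spermatocyte, spermatid, Leydig, and neutrophil and macrophage markers (13.6, 24.1, 14.1 and 14.3 RPKM). The planned protein sequences were not used here, and coding sequences stand in their place. Alternatives were a pseudocount of 0.1, no filter or 5 RPKM, a 4-fold limit, other thresholds of silence, and 3 rescalings (over 28 ribosomal protein genes, by the median of ratios, and to equal sums). Python 3.11.15, numpy 2.4.6, scipy 1.17.1, pandas 2.3.3 and matplotlib 3.10.9 were used, and the recovery of reads and calls was tested on simulated data. The simulation used entries above 0 in every library, changes larger than the limit, and calls from 5 RPKM upward. It therefore does not cover changes near the limit, levels near 1 RPKM or genes at 0 in a library.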

Additional observations from a re-analysis of the deposited data

How the results depend on the processing

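No paired analysis was possible because each age has 1 library and no test was made. For E18 against E14, 4 genes were higher as reported and 2 with a minimum of 5 RPKM or a 4-fold limit. Over all entries tested, 2.17% were higher as reported, 2.87% with a minimum of 5 RPKM and 0.275% with a 4-fold limit. For 3 weeks against E18 (5 higher, 1 lower as reported), the counts were 9 and 2 with a pseudocount of 0.1, 0 and 0 with a minimum of 5 RPKM, 1 and 0 with a 4-fold limit, and 11 and 0 over ribosomal protein genes, and 3 were higher by the median of ratios. In that order, the shares of all entries tested were 45.7% and 17.9%, 52.7% and 14.9%, 16.1% and 1.98%, and 54.6% and 2.17%. By the median of ratios 25.7% of them were higher. For 6 months against 3 weeks (2 higher, 5 lower as reported), 5 were higher with a pseudocount of 0.1, 0 lower with a minimum of 5 RPKM and 1 lower with a 4-fold limit, while the median of ratios gave 7 and 2 and ribosomal protein genes 6 and 9. In that order, the shares of all entries tested were 14.3% higher, 23.9% lower and 1.80% lower. The median of ratios gave 17.7% and 4.39%, and ribosomal protein genes 13.7% and 13.2%. The 6 genes silent in every library became 11 under 0.1 RPKM and 19 at no more than 3 reads. The 14 genes of at least 1 RPKM became 31 at 0.1 RPKM and 4 at 5 RPKM. Chosen after seeing the data was leaving out a library: silent genes were then 12 without E18 and 17 without 3 weeks, and genes of at least 1 RPKM were 9 without 3 weeks and 9 without 6 months. Among genes of at least 1 RPKM the highest level was at E18 in 2, at 3 weeks in 5 and at 6 months in 7. The counts over all beta-defensins above 0 were 7, 17 and 12, and neither set has a share of all entries beside it. A higher minimum leaves fewer genes to count, and the cause of the shifts with scaling was not tested. Of 168 differences of single genes under the pseudocount and the 3 scalings, 44 are between 2 values of 0 and cannot move. Of the other 124, 45 lay outside the counting interval of the difference as deposited, taken with a pseudocount of 1. Of these 45, 27 were values with a pseudocount of 0.1, which are on another scale than that interval. Equal sums of RPKM gave 7 higher and 1 lower at 3 weeks, and 3 higher and 7 lower at 6 months. The shares of all entries tested were then 36.7% and 8.08% at 3 weeks, and 9.496% and 16.99% at 6 months. Depth limits the 13 genes with 1 to 3 reads, whose presence and age of highest level are not settled.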
